A study of Drosophila melanogaster with 6 samples.

Results

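The genes described here encode the contractile apparatus of muscle, the sarcomere, together with transcription factors of its precursor cells, the myoblasts. They are a named list of 31 Drosophila genes, taken by symbol and chosen with earlier results of these data known. Counts within the list are therefore not independent support. A gene was measured where the array held a probe set assigned to it alone, and the probe set with the highest mean over 6 arrays stood for it. By that rule 23 of the 31 genes were measured, of 11982 genes with such a probe set. The other 8, Tm1, TpnC47D, TpnC25D, Mhc, wupA, Act57B, Unc-89 and Mef2, were not analysed here.

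RNA came from dissected eye-antennal imaginal discs, the larval epithelia of the adult eye, antenna and head, of w1118 larvae at the L3 wandering stage. The tumour genotype was ey-Gal4 GS(2)88A8 UAS-Dl/+, in which ey-Gal4, a driver active in the developing eye, acts on the GS(2)88A8 insertion, which places the genes lola and psq under Gal4 control, and on UAS-Dl, which encodes Delta, a ligand of the Notch receptor. The control genotype was GS(2)88A8 UAS-Dl/+, with the same insertion and transgene and no driver. Each genotype had 3 biological replicates, numbered 1 to 3 in the labels, on 1-colour Affymetrix arrays. No group carried the driver alone.

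In a sarcomere, thick filaments of myosin slide along thin filaments of actin when calcium binds troponin C and moves tropomyosin. Z-discs anchor the thin filaments, and giant proteins of the titin family link them to the thick filaments. Insects make many of these proteins in isoforms for larval or for adult muscle. Myoblasts lie beside the epithelium of several imaginal discs, express twi and Mef2, and later fuse into adult muscle. Discs also lie close to larval muscles at dissection.

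All values are log2 intensities as deposited, so 1 unit is 2-fold, and the scale has a floor of 2.17. On each array 7864 to 8004 probe sets reached 4, and the replicate 1 arrays of both genotypes had lower upper quartiles, 8.25 and 8.31, than the other 4, at 8.65 to 8.68. Genes of the eye and antennal fields were present throughout. The retinal genes eya, so and ey averaged 12.57, 10.38 and 9.08 in control, and the distal antennal gene Dll averaged 9.48.

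Of the 23 measured genes 19 were tested, having a value of at least 4 on at least 3 arrays. Tumour discs had lower signal for most of the 19. Within replicate numbers, limma called 12 lower and 0 higher at an adjusted p under 0.05, and no member rose even at an unadjusted p under 0.05. Over all 6447 tested genes the same test called 5.38% lower and 4.06% higher, against 63.2% lower among the 19. A fit that ignored the replicate numbers called 1 member, TpnC73F, where it called 0.372% of all genes lower. In that fit 12 of the 19 members, and 321 of all 6447 tested genes, were lower at an unadjusted p under 0.05. In whole discs, fewer muscle cells and less RNA per cell cannot be told apart.

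**Figure D1:**
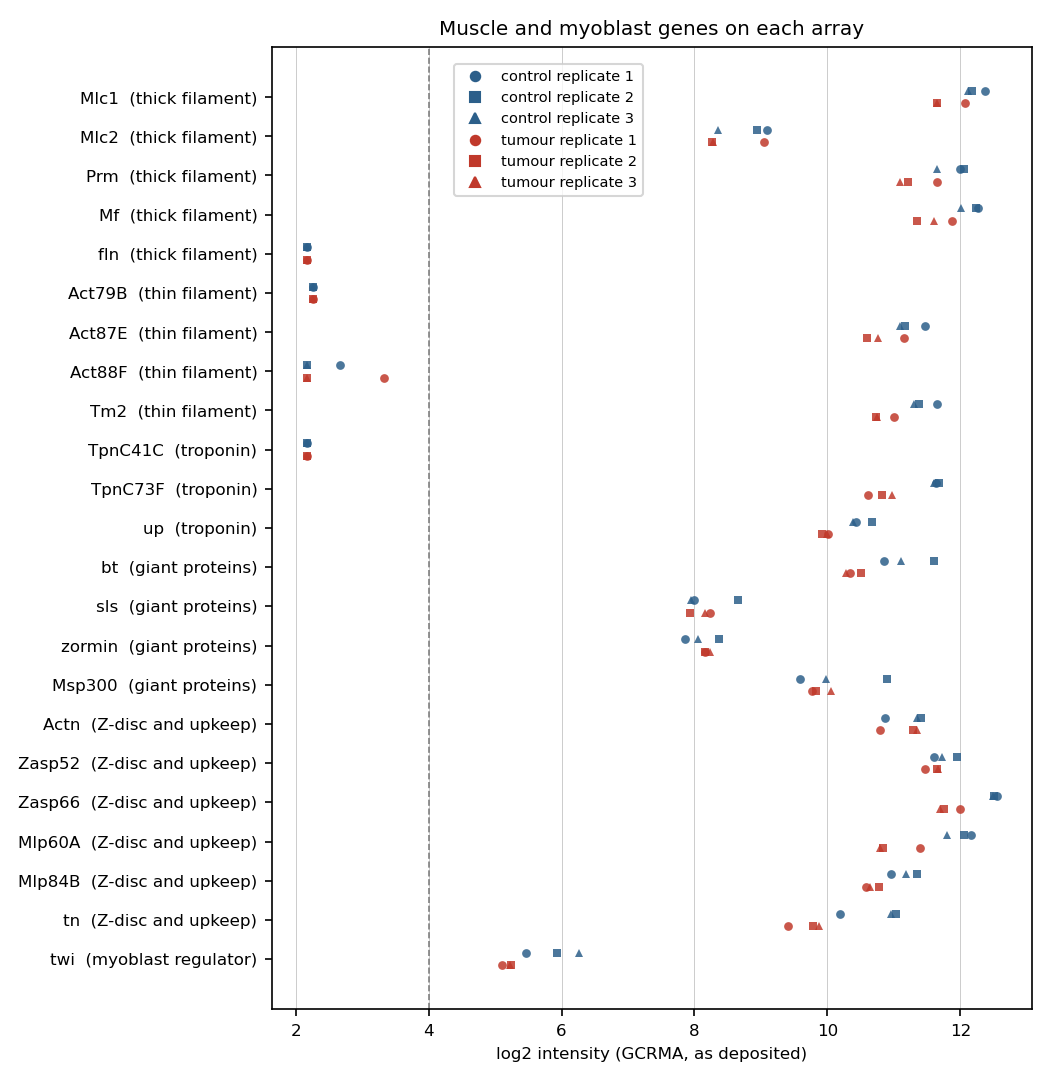
Log2 intensity of the 23 measured genes on each of the 6 arrays, 1 row per gene with its role, control in blue and tumour in red, and a marker shape for each replicate number; the dashed line marks the value of 4 used as a filter. For 12 of the 19 tested genes all red points lie left of all blue points, and fln, Act79B, TpnC41C and Act88F lie below 4.

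The median difference of the 19 genes, tumour minus control, was -0.52, against 0.05 over all tested genes, of which 5% had a difference below -0.52. A negative difference was found for 18 of the 19, against 38.5% of all tested genes. All 3 tumour arrays lay below all 3 control arrays for 12 of the 19, a pattern found in 7.2% of all tested genes. Tumour was lower in each of the 3 replicate numbers for 16, against 20.6% of all tested genes. The called genes fell by small amounts. Only tn fell by at least 2-fold, and 6 of the 12 fell by at least 1.5-fold.

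**Figure D2:**
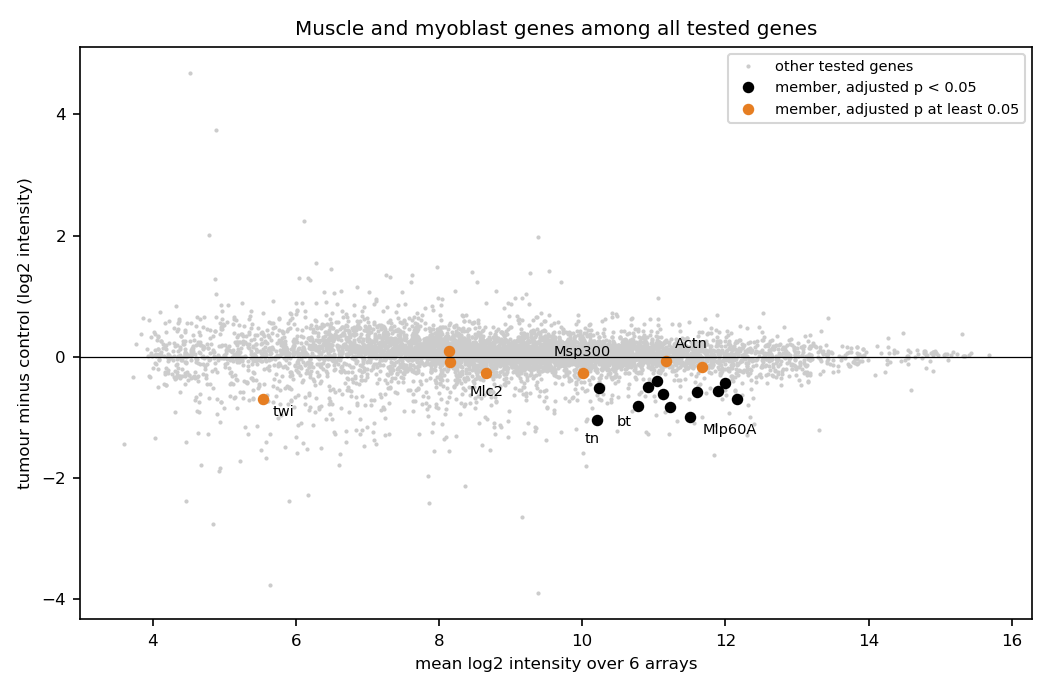
Difference between tumour and control (log2 intensity) against the mean log2 intensity over 6 arrays for all 6447 tested genes in grey, with called members in black and other members in orange. The called members lie between -1.04 and -0.41, and genes outside the list reach larger falls and rises.

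Troponin is the calcium switch of the thin filament. TpnC73F, a troponin C of larval and other body muscles, read 10.61, 10.82 and 10.96 in tumour replicates 1, 2 and 3 and 11.63, 11.68 and 11.60 in control. The 3 control values lay close together, and every tumour value was below them. TpnC73F was 1.79-fold lower, a difference of -0.84 ± 0.08 (SE, limma adjusted p = 0.010, and 0.045 without the replicate block). The gene up, which encodes troponin T, read 10.01, 9.92 and 9.99 in tumour and 10.42, 10.68 and 10.38 in control. It was 1.44-fold lower without overlap, by -0.52 ± 0.09 (SE, adjusted p = 0.034). TpnC41C, a troponin C of adult muscle, lay at the floor of the scale on all 6 arrays, and so did a second probe set of TpnC73F.

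Thin filaments consist of actin wound with tropomyosin. Tm2, a muscle tropomyosin, read 11.00, 10.72 and 10.75 in tumour replicates 1, 2 and 3 and 11.64, 11.38 and 11.30 in control. Its level shifted with the replicate number in both genotypes, but the gap between them was nearly constant, at -0.64, -0.66 and -0.55. Tm2 was 1.53-fold lower and had the smallest adjusted p of the members (-0.62 ± 0.05 SE, adjusted p = 0.0066). Act87E, a muscle actin, read 11.15, 10.60 and 10.76 in tumour and 11.47, 11.17 and 11.10 in control. The genotypes overlapped, since tumour replicate 1 exceeded control replicate 3, and Act87E fell by 0.41 ± 0.07 (SE, adjusted p = 0.031, and 0.62 without the replicate block). The actins of adult muscle were not detected above the filter: Act79B, of leg and other tubular muscles, read 2.26 on all arrays, and Act88F, of the flight muscles, read 3.33 in tumour replicate 1, 2.67 in control replicate 1 and the floor elsewhere.

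Thick filaments hold myosin around a core of paramyosin. Mlc1, the alkali light chain of muscle myosin, read 12.07, 11.64 and 11.64 in tumour and 12.36, 12.18 and 12.11 in control. It was 1.35-fold lower without overlap (-0.43 ± 0.06 SE, adjusted p = 0.021). Paramyosin itself, encoded by Prm, read 11.65, 11.21 and 11.10 in tumour and 12.00, 12.05 and 11.65 in control.

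The highest tumour value of Prm and its lowest control value were nearly equal, and Prm was lower by -0.58 ± 0.10 (SE, adjusted p = 0.033). Mf, the gene of the thick-filament protein myofilin, read 11.88, 11.35 and 11.61 in tumour and 12.27, 12.24 and 12.01 in control. Its fall of 0.56 ± 0.11 (SE, adjusted p = 0.048) was the one closest to the threshold. Mlc2, the regulatory light chain, read 9.04, 8.27 and 8.28 in tumour and 9.10, 8.94 and 8.35 in control. Only replicate number 2 showed a clear gap for Mlc2, which was not called (-0.27, 95% interval -0.64 to 0.11, adjusted p = 0.28). The gene of flightin, fln, a flight muscle protein of the thick filament, was at or within 0.5 of the floor throughout.

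**Figure D3:**
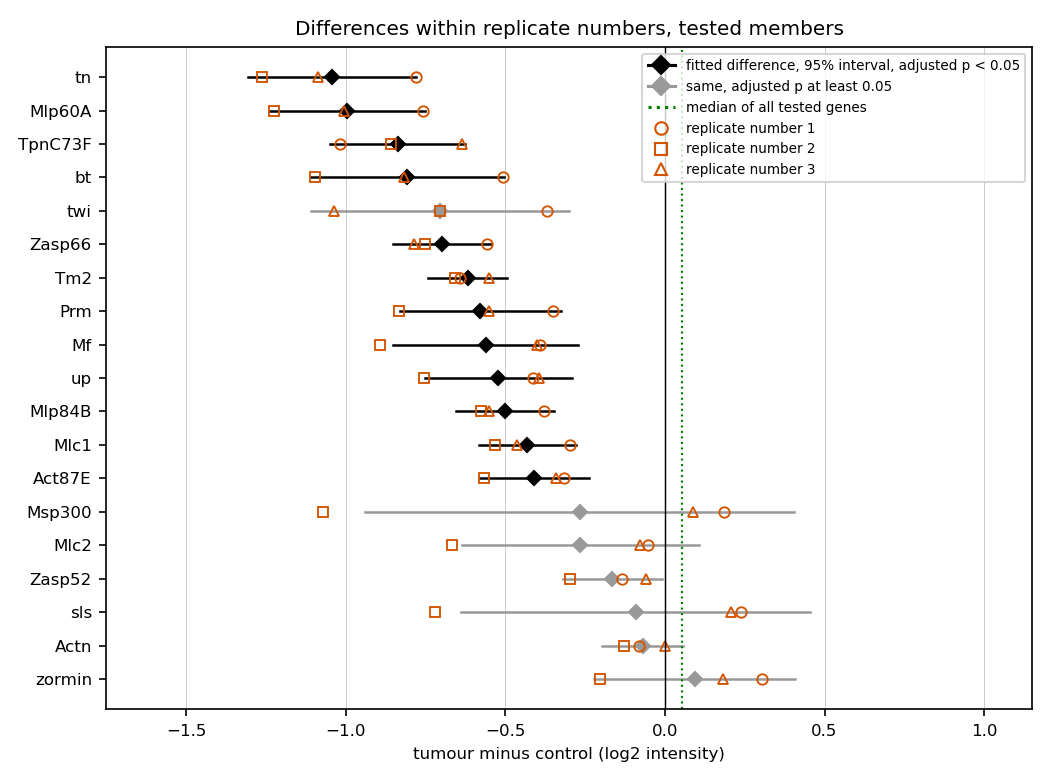
Tumour minus control (log2 intensity) for the 19 tested members in order of size: diamonds are fitted differences with 95% intervals, black where the adjusted p was under 0.05, open orange symbols are the differences in replicate numbers 1 to 3, and the dotted line is the median of all tested genes, 0.05. Replicate number 2, the open square, is the lowest of the 3 for 16 genes.

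Z-disc proteins and proteins that keep the sarcomere intact included the 2 members with the largest falls, tn and Mlp60A. The gene tn encodes Thin, a TRIM-family ubiquitin ligase needed to maintain larval muscle, and read 9.40, 9.78 and 9.87 in tumour against 10.18, 11.04 and 10.96 in control. It was 2.06-fold lower (-1.04 ± 0.10 SE, adjusted p = 0.010), with its lowest values in both genotypes on the replicate 1 arrays. Mlp60A, a muscle LIM protein, read 11.39, 10.83 and 10.79 in tumour and 12.15, 12.05 and 11.80 in control. Here the replicate 1 arrays were highest in both genotypes, and the gene was 2.00-fold lower (-0.997 ± 0.095 SE, adjusted p = 0.0096). Of the 3 probe sets of Mlp60A only 1 was tested, and the others read 2.17 to 2.40. Mlp84B, a relative of Mlp60A, read 10.58, 10.77 and 10.64 in tumour and 10.96, 11.35 and 11.19 in control, 1.42-fold lower without overlap (-0.50 ± 0.06 SE, adjusted p = 0.015).

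Zasp66 encodes a PDZ-domain protein of the Z-disc. It read 12.00, 11.75 and 11.70 in tumour and 12.56, 12.50 and 12.49 in control, 1.62-fold lower (-0.70 ± 0.06 SE, adjusted p = 0.0075). Its paralogue Zasp52 also acts at integrin adhesions outside muscle, and it was not called: 11.47, 11.65 and 11.66 in tumour against 11.61, 11.95 and 11.72 in control (-0.16, 95% interval -0.32 to -0.01, adjusted p = 0.15). Actn, the α-actinin that crosslinks actin in Z-discs and in many other cells, read 10.79, 11.29 and 11.35 in tumour and 10.87, 11.41 and 11.35 in control. The genotypes overlapped for both, and the interval for Actn ran from -0.20 to 0.06 (adjusted p = 0.39). Whether Zasp52 or Actn differed from the called genes in their response was not tested.

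The giant proteins split. Projectin, encoded by bt, is a titin-like kinase, and bt read 10.34, 10.50 and 10.28 in tumour and 10.85, 11.60 and 11.10 in control, 1.75-fold lower without overlap (-0.81 ± 0.12 SE, adjusted p = 0.024). The titin-like gene sls read 8.23, 7.94 and 8.15 in tumour and 7.996, 8.66 and 7.95 in control. Control replicate 2 alone stood above the tumour arrays for sls. The same array stood apart for Msp300, a nesprin that positions muscle nuclei, which read 9.76, 9.82 and 10.06 in tumour and 9.58, 10.89 and 9.97 in control. Neither was called (adjusted p = 0.80 and 0.53), with 95% intervals of -0.64 to 0.46 for sls and -0.94 to 0.41 for Msp300. Without replicate number 2 both differences turned positive, 0.22 for sls and 0.14 for Msp300. The Ig-domain gene zormin was 8.16, 8.16 and 8.23 in tumour and 7.86, 8.37 and 8.05 in control, the 1 member with a positive difference (0.09, 95% interval -0.22 to 0.41, adjusted p = 0.64).

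Of the measured genes 6 had more than 1 tested probe set. Both probe sets of Zasp66 fell, by 0.70 and 0.81, and both of Prm, by 0.58 and 0.60. For Mf the dimmer one differed by -0.42 and was not called (adjusted p = 0.067). For the giant genes the probe sets diverged. A second probe set of zormin, with tumour values of 6.61, 7.19 and 7.18 and control values of 6.85, 8.17 and 7.72, differed by -0.59 (adjusted p = 0.090). In sls a dimmer probe set was at -0.42 (adjusted p = 0.072) and another at 0.00, and the 4 of Msp300 ran from -0.33 to 0.08. None of these was called. The representative probe sets of 4 called genes, Tm2, Act87E, Mlp84B and tn, have the suffix that Affymetrix gives to probes shared with other transcripts, which may be of a near-identical gene, so their signal may not be of 1 gene alone.

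**Figure D4:**
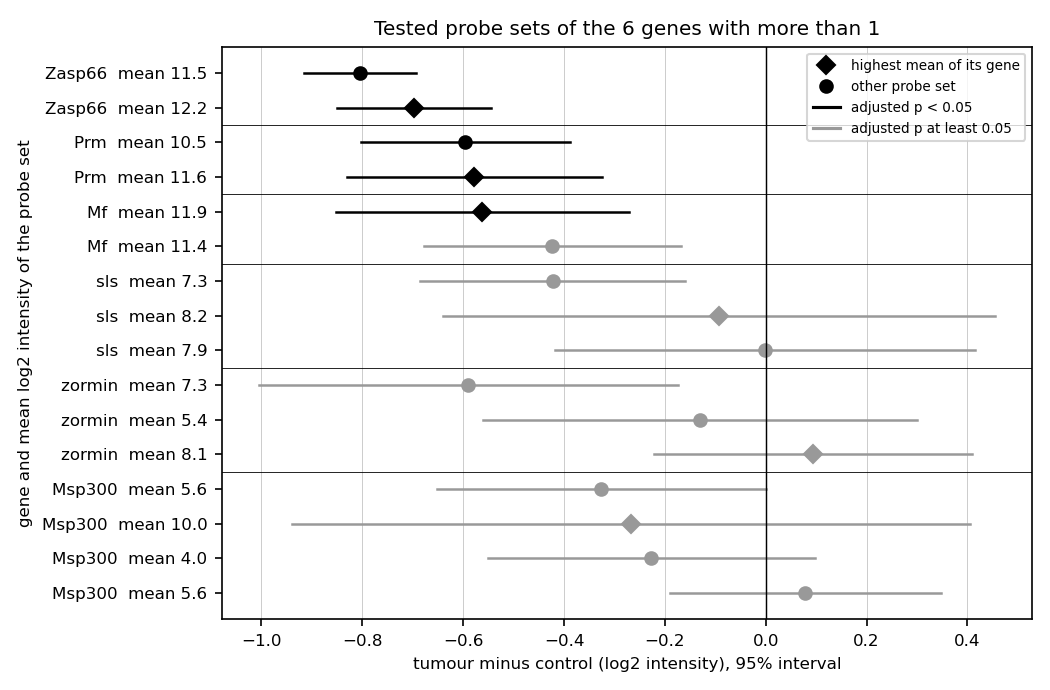
Tumour minus control (log2 intensity) with 95% interval for each tested probe set of the 6 genes with more than 1, labelled with its mean log2 intensity; diamonds mark the brightest of a gene, and black marks an adjusted p under 0.05. Zasp66 and Prm fell in each tested probe set, and the 3 of zormin run from -0.59 to 0.09.

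The myoblast regulator twi, a basic helix-loop-helix factor that keeps adult muscle precursors undifferentiated, had low signal. It read 5.10, 5.23 and 5.22 in tumour and 5.47, 5.94 and 6.26 in control. All tumour values lay below all control values, and the difference of -0.70 ± 0.16 (SE, 1.63-fold) did not pass the threshold (adjusted p = 0.060). It passed without replicate number 1, where the adjusted p was 0.048, but not without number 2 or number 3 (limma adjusted p = 0.11 and 0.33).

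Other muscle genes were taken from a list of 27, of which 18 were tested. Within replicate numbers 5 fell and 0 rose, 27.8% against the 5.38% called lower over all genes, and the median difference was -0.11. At an unadjusted p under 0.05, 8 were lower and 0 higher, and limma without the block called 0 of the 18. Tsp, a thrombospondin of muscle attachment sites, fell by 0.74 ± 0.05 (SE, adjusted p = 0.0052). Mp20, a calponin-like muscle protein, fell by 0.56 ± 0.07 (SE, adjusted p = 0.015), and sals, which lengthens thin filaments, by 0.73 ± 0.10 (SE, adjusted p = 0.022). The small heat shock protein gene l(2)efl, whose product sits at Z-discs, fell by 0.33 ± 0.05 (SE, adjusted p = 0.031), and the calcium pump gene SERCA was the fifth. The probe sets of Tsp, sals and SERCA have the suffix for shared probes described above, so their signal may include other transcripts.

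The 13 that were not called include components of integrin adhesion, which epithelia also use. Among them Ilk, an integrin-linked pseudokinase, was at -0.14 (95% interval -0.26 to -0.01, adjusted p = 0.15) and lower in all 3 replicate numbers. The integrin gene if was at 0.17 (-0.04 to 0.38), the talin gene rhea at 0.02 (-0.22 to 0.26), and parvin at 0.04 (-0.19 to 0.28). On the other side mys was at -0.08 (-0.30 to 0.14), Vinc at -0.08 (-0.25 to 0.09) and stck at -0.06 (-0.18 to 0.06). Strn-Mlck, at -0.69 (limma adjusted p = 0.052), and sr, at -0.41 (adjusted p = 0.17), were lower in all 3 replicate numbers and not called. Of the 18 tested genes 12 had a negative difference, against 38.5% of all tested genes. TpnC4, the flight muscle troponin C, lay at the floor on all arrays, as TpnC41C did. The cytoplasmic myosin light chain Mlc-c, the 1 measured gene of 5 listed cytoplasmic relatives, was at -0.12 (95% interval -0.26 to 0.03, adjusted p = 0.24).

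Another list held 22 other genes of myoblasts and their fusion, of which 10 were tested. Of these 1 was called lower, 10% against the 5.38% over all genes, and 0 higher, while at an unadjusted p under 0.05 limma had 3 lower and 4 higher. The called gene was zfh1, a zinc-finger homeodomain factor of muscle progenitors that other cells such as haemocytes also express. It read 3.81, 4.24 and 4.35 in tumour and 4.54, 6.17 and 5.51 in control, 2.42-fold lower (-1.28 ± 0.24 SE, adjusted p = 0.043), with control replicate 2 highest. Without the block limma called none of the 10, and the adjusted p of zfh1 was 0.42. The list median was -0.05. Of the 19 with a probe set 7 lay within 0.5 of the floor on all arrays, among them Him, Hand, nau and lmd. The fusion adhesion genes rst and hbs, which also pattern the eye, had higher tumour values that did not pass (0.48 and 0.38, adjusted p = 0.078 and 0.053).

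**Figure D5:**
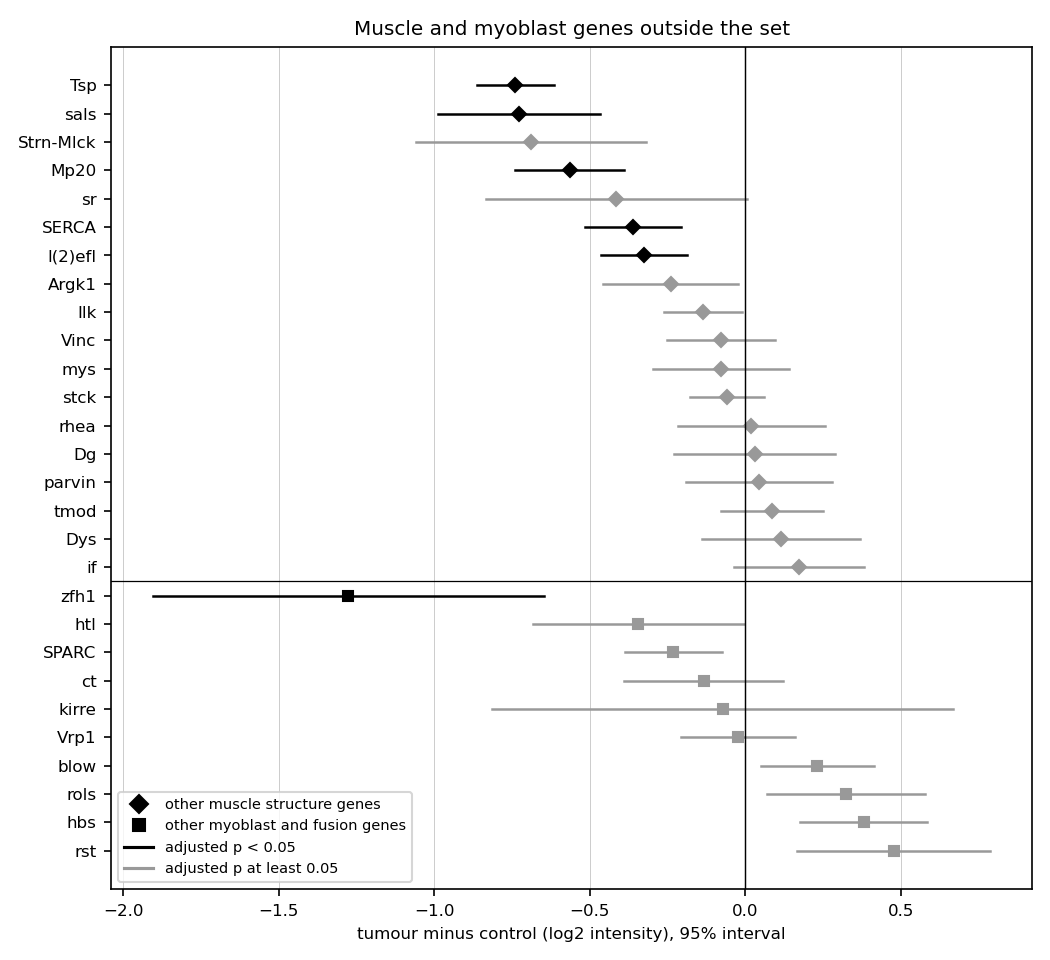
Tumour minus control (log2 intensity) with 95% interval for the tested genes of the list of other muscle genes (diamonds, 18 genes) and the list of myoblast and fusion genes (squares, 10 genes); black marks an adjusted p under 0.05. The 5 called muscle genes and zfh1 lie left of 0, and the fusion genes rst, hbs, rols and blow lie right of it without passing.

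Replicate numbers did not contribute equally. The difference was most negative in number 2 for 16 of the 19 members, against 43.9% of all tested genes and 33.4% of the genes called lower. The members' median difference was -0.37, -0.72 and -0.46 in numbers 1, 2 and 3. Without number 1, 11 members were called lower, against 4.37% of all genes. Without number 2, 10 were called, against 3.66%. Without number 3, limma called 0 members and 0% of all genes lower, while 13 members were lower at an unadjusted p under 0.05 and their median stayed at -0.54. The summed signal of the 23 genes on the linear scale ran from 31052 to 35121 over the tumour arrays and from 44617 to 51337 over the control arrays, without overlap.

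Markers of other cell types that a disc preparation may carry were read beside these values. Of 9 haemocyte genes, all tested, 0 were called, where 5.38% of all tested genes were called lower. Negative differences were found for 8, against 38.5% of all tested genes, with a median of -0.35 and 3 lower at an unadjusted p under 0.05 in limma. Their summed linear signal was 1532 to 2031 in tumour and 1951 to 2556 in control, highest on control replicate 2. Hml, at -0.59, and Pxn, at -0.44, had the smallest p (limma adjusted p = 0.11 and 0.12) and were lower in all 3 replicate numbers. Of 4 tested glial genes Gs2, a glutamine synthetase, fell by 1.37 (adjusted p = 0.0032) and moody by 0.41 (adjusted p = 0.046), while repo, the defining glial factor, was at -0.16 (adjusted p = 0.41). The fourth, nrv2, was at 0.25, higher in all 3 replicate numbers, with an adjusted p of 0.14 and an unadjusted p of 0.034 in limma. The glial sum was 4387 to 5674 in tumour and 4952 to 5482 in control.

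The 4 measured fat body genes lay under 4 on every array but control replicate 3. There Lsp2, a storage protein, read 6.51 against at most 3.11 elsewhere. Fbp1 and Fbp2 read 5.52 and 5.55 on that array, while Yp1 stayed at the floor. The sum of the 4 genes was 26.7 to 27.0 in tumour and 26.7 to 188.6 in control. Of 3 tested tracheal genes, verm, serp and Gasp, 0 were called, and verm was higher at an unadjusted p under 0.05 in limma. Their median difference was 0.05. The list had sums of 19870 to 28719 in tumour and 19972 to 25852 in control. In control verm, serp and Gasp averaged 12.61, 12.23 and 13.58, and whether their signal came from trachea was not tested. The other measured tracheal gene, btl, did not pass the filter. It read 2.17, 3.27 and 3.27 in tumour replicates 1, 2 and 3 and 2.46, 4.04 and 4.83 in control, lower in tumour in all 3 numbers. Of 4 tested neuronal genes elav rose by 0.52 (adjusted p = 0.014). The others were not called, brp at 0.45 (95% interval 0.05 to 0.85), futsch at 0.39 (-0.61 to 1.39) and nSyb at 0.02 (-0.24 to 0.28). The neuronal list had sums of 2579 to 3017 in tumour and 1840 to 2253 in control. Of 7 tested eye and antennal genes 4 rose, by up to 1.24 for ey (adjusted p = 0.0056), and Dll fell by 0.61 (adjusted p = 0.035). Over all tested genes limma called 4.06% higher and 5.38% lower. The eye and antennal list had sums of 17200 to 20306 in tumour and 10970 to 14916 in control. Without the replicate block limma called 0 genes of these lists, with adjusted p of 0.13 for Gs2, 0.77 for moody, 0.28 for elav, 0.32 for ey and 0.66 for Dll. The part of these cell types in the muscle values was not tested.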

How the data were processed

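RNA from 3 tumour and 3 control disc samples was hybridised to 1 Affymetrix Drosophila Genome 2.0 array each. The deposited values are log2 intensities, which the authors made with GCRMA, per the submitters' processing notes, with no version stated there. The log2 scale was read from the values. Precision is limited by the number of arrays, as no reads were counted.

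The 183 control probe sets were set aside. Of the other 18769, the platform annotation gave 1 gene for 13647, several for 402 and none for 4720. Names were updated through NCBI gene identifiers, found for 13544. Probe sets with a value of at least 4 on at least 3 arrays were tested, 7962 probe sets and 6447 genes. The fit was limma 3.58.1 in R 4.3.3, lmFit and trended eBayes. P-values were two-sided, adjusted by Benjamini and Hochberg over the 7962 probe sets and judged at 0.05. The replicate number was a block, because the comparison was set within replicate numbers. The labels do not say what a number marks. Deviations from the genotype means correlated at 0.794, 0.467 and 0.723 for numbers 1, 2 and 3, all above 0.1. The correlation of tumour replicate 2 was higher with control replicate 3, 0.668, than with its own number. Control replicate 2 correlated at 0.473 with tumour replicate 3. The values set number 1 apart but do not tell numbers 2 and 3 from each other, so the pairing of those rests on the labels. In the main fit the SEs and tests measure the spread of tumour minus control differences within replicate numbers, moderated by limma. Spread that both genotypes of a number share is taken out. For Mlc1 the SE was 0.059 with the block and 0.146 without it. The labels give no more of these disc samples than that they are biological replicates.

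The members and the gene lists were chosen with earlier results of these data known, so no list count is independent support. All members are accounted for by name. From each other list, up to 4 called genes with the smallest adjusted p were to be named, or the 2 with the smallest p where none was called; other genes were named as list context after their values were seen. The fits were tested on simulated data. Those data took their replicate effects and spread from the fit with the block, so they cannot test whether the block is right. Alternatives were a fit without the block, leaving out each replicate number, other filters, quantile normalization, centring on ribosomal protein genes, eBayes without trend, the mean of all probe sets of a gene, and array weights. Sums over a list are of 2 to the power of the log2 value, over its genes with a probe set. Counts at an unadjusted p under 0.05 were also taken over all tested genes only in the fit without the block. Elsewhere such counts have no share over all genes beside them.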

Additional observations from a re-analysis of the deposited data

How the results depend on the processing

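The count of 12 members called lower was 12 or 13 with a stricter filter of at least 6, quantile normalization, ribosomal centring or array weights, and 9 with the mean of all probe sets. It was 7 with eBayes without trend, 1 without the replicate block, and 0 with no filter on low values, where limma called no gene lower and 13 members had an unadjusted p under 0.05. The count over all tested genes moved too, from 347 called lower in the main fit. It was 368, 480, 485 and 670 with the stricter filter, quantile normalization, ribosomal centring and array weights. With the mean of all probe sets it was 327, without trend 238, and without the block 24. Leaving out a replicate number gave 0 to 11 members called lower, with 0 without number 3. In the fit without the block, leaving out 1 array, a choice made after seeing the data, gave 0 to 1, the 1 without tumour replicate 1. These fits with 1 array left out were read for calls of lower members alone. Under the other settings named above no member was called higher, the median of the members lay between -0.59 and -0.40, and 3 uncalled genes reversed. Leaving out a replicate number moved zormin between -0.011 and 0.24, sls between -0.26 and 0.22 and Msp300 between -0.49 and 0.14. With the mean of all probe sets zormin was at -0.11, and with array weights sls was at 0.0057. The cause of these changes was not tested, except that leaving out a number leaves fewer arrays, and that the mean of all probe sets includes those at the floor. The differences of TpnC73F and Mlp60A were then -0.42 and -0.31, and neither was called (limma adjusted p = 0.055 and 0.12). The gene twi was called with quantile normalization, ribosomal centring, array weights and without number 1 (adjusted p = 0.027, 0.043, 0.010 and 0.048). It was not called without number 2, without number 3 or without the block (limma adjusted p = 0.11, 0.33 and 0.41). Nor was it called with no filter, without trend or with the mean of all probe sets (limma adjusted p = 0.42, 0.072 and 0.056). Values near the floor limit what can be said of fln, Act79B, Act88F and TpnC41C.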

Other observations

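The replicate 1 arrays, which stood apart in both genotypes, were not shifted one way for the muscle genes. Of the 19 tested members 8 had a higher mean on the replicate 1 arrays than on the other 4, with Mlc2 0.61 and Mlp60A 0.41 higher, and tn 0.62, Actn 0.52 and Msp300 0.51 on the other side. That count was not taken over all genes. The median of all tested genes was 8.89 and 8.84 on the replicate 1 arrays of tumour and control, and 9.17 to 9.22 on the other 4. Control replicate 1 was the highest control array for 7 members, against 8.89% of all tested genes. Within sls the probe sets parted: the brightest differed by -0.060 between replicate 1 and the other arrays, and the dimmer ones by -1.61 and -1.76.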
